A study of Mus musculus with 12 samples.

Results

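The response of the MOK-knockout line of SIM-A9 cells to lipopolysaccharide (LPS) is described here across all genes. SIM-A9 is a microglial cell line from C57BL/6 mice, and the knockout line, labelled H14, is given here as KO and the unedited line as WT. The members are 6 of the 12 RNA libraries of the study, taken by their labels: 3 of KO cells given medium alone and 3 of KO cells given LPS at 1 µg/mL for 5 h. The other 6 libraries are WT cells under the same pair of treatments and serve for the test of whether an effect differed between the lines. They also entered the gene filter, the scaling and the estimate of spread behind the p-values of the KO line. All 12 cultures grew in DMEM-F12 with fetal bovine and horse serum, and all libraries were stranded total RNA depleted of ribosomal RNA. The knockout is 1 line, in which the lack of MOK cannot be told apart from other differences of that line. The labels call the replicates biological and do not say how far the cultures were kept apart; p-values here measure only how these libraries vary.

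LPS, a cell wall component of Gram-negative bacteria, is carried by CD14 to the receptor pair TLR4 and MD-2. TLR4 signals through MyD88 to NF-kB and the MAP kinases, which switch on cytokines within minutes to hours, and through TRIF to the kinases TBK1 and IKKε, the factor IRF3 and interferon-β. Secreted interferon then acts back on the cells through its receptor and JAK-STAT signalling and switches on interferon-stimulated genes. MOK belongs to the protein kinases that phosphorylate serine and threonine and resembles MAP kinases.

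The 6 KO libraries held 39.7 to 57.6 M counts. Mok itself was at 2.24, 2.58 and 1.93 counts per M of the scaled library (CPM) in medium and at 1.70, 1.54 and 1.319 CPM under LPS, and gene-level counts do not show whether these transcripts carry an edit. Mok was lower under LPS (log2 fold change -0.56 ± 0.19 SE, edgeR adjusted p = 0.0267), a call that was lost without KO medium replicate 2 (adjusted p = 0.0637) and also without either replicate 2 or replicate 3 under LPS (0.0554 and 0.0976). KO LPS replicate 2 stood apart from the other LPS libraries: 10.4% of its counts fell on identifiers without a symbol, against 6.11% and 8.16%, and its counts differed from theirs by a chi-square divided by its degrees of freedom of 185.8 and 103.3, against 43.7 between the other two. Processed pseudogenes, the intronless copies of messenger RNAs, took 12.8% to 14.3% of the counts in KO medium and 6.64% to 7.35% in KO LPS. Within the KO line this share moved with the treatment. WT medium replicates 1 to 3 held 8.89%, 13.05% and 6.58%, against 6.28% to 7.05% in WT LPS. WT medium replicate 3 thus lay within the range of WT LPS, and replicate 2 within that of KO medium. The identity of the cells was checked with 12 macrophage and microglia markers, all detected, whose summed level was 1963 to 2523 CPM in medium and 1919 to 2560 CPM under LPS. The sum hides opposite changes, as 4 of the 12 were called higher and 2 lower under LPS. Laptm5 alone had a mean of 1226 CPM in medium and 671 CPM under LPS, and Cd14 38.2 and 251 CPM. Csf1r, the receptor for CSF1, was at 167, 126 and 152 CPM in medium and at 123, 130 and 118 CPM under LPS. Aif1 (IBA1), often used to stain microglia, was at 1.16 to 1.28 CPM in medium. Markers of other cells were checked in the same way, and no listed marker was at 0 in all KO libraries. Markers of astrocytes, neurons and granulocytes summed to at most 5.84, 7.90 and 2.52 CPM in any KO library. Fibroblast and endothelial markers summed to 113 to 132 CPM in medium and 112 to 131 CPM under LPS, nearly all of it Kdr (128, 109 and 125 CPM, then 111, 127 and 108 CPM). Lymphocyte markers summed to 140 to 203 CPM and 130 to 146 CPM, mostly Ighm, which was not called. That sum hides opposite changes, as 2 of 8 tested lymphocyte markers were called higher and 1 lower. The shares among all genes tested were 25.3% and 26.8%. Oligodendrocyte markers summed to 44.5 to 48.3 CPM and 24.1 to 31.2 CPM, with Mag, Sox10, Mbp and Cnp lower under LPS. The call of Cnp was lost without KO LPS replicate 2 (adjusted p = 0.0873) or KO medium replicate 1 (0.0564). With the log2 pseudogene share of each library as a covariate 0 oligodendrocyte markers were called lower, and Mag changed sign (0.24, adjusted p = 0.806). In that fit 0 lymphocyte markers were called higher and 0 lower. The part of these markers in the results was not tested. In bulk libraries like these, fewer cells that express a gene and less RNA per cell cannot be told apart.

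Of 26420 genes tested, 6679 (25.3%) were higher and 7070 (26.8%) were lower under LPS in the KO line at a Benjamini-Hochberg adjusted p under 0.05 (edgeR quasi-likelihood test), 52.0% in all. The 16173 protein-coding genes had 5376 higher (33.2%) and 2755 lower (17.03%), with a median log2 fold change of 0.12. Over all genes 1224 rose and 2281 fell 4-fold or more, whereas 806 protein-coding genes rose and 244 fell that far. Changes of 10-fold or more were rises in 178 and falls in 24 protein-coding genes, and 23 rose and 0 fell by at least 100-fold. Of the 178, 104 had a mean under 1 CPM in medium. Processed pseudogenes went the other way, with 305 higher and 3233 lower of 4634 and a median of -1.54, and the 3131 long non-coding genes had 605 higher and 576 lower. Without the composition factors, with libraries scaled to their size, 4182 genes were higher and 10422 lower, so that 28.6% of the calls were rises in place of 48.6%, and the median over all genes went from -0.03 to -0.29. With the log2 share of processed pseudogenes per library as a covariate 1342 genes were higher and 659 lower; within the KO line this share and the treatment cannot be told apart. All 3 LPS libraries lay above all 3 medium libraries in 28.8% of the genes tested and below them in 32.6%.

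**Figure D1:**
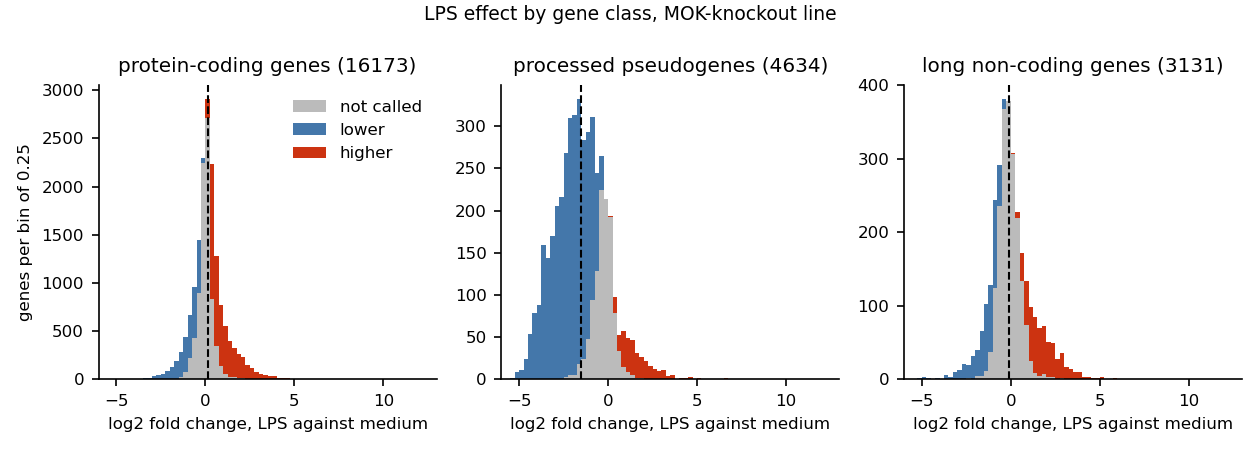
Distribution of the log2 fold change (LPS against medium, KO line) in bins of 0.25 for protein-coding genes, processed pseudogenes and long non-coding genes, with called genes in colour and the median as a dashed line. The medians were 0.12, -1.54 and -0.12, and the right tail of large rises belongs mostly to protein-coding genes.

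Acod1, which makes itaconate from the citrate cycle, had the largest rise among protein-coding genes at a mean log2 CPM of at least 2. It stood at 4.47, 2.21 and 4.18 CPM in medium and at 5757, 3652 and 4598 CPM under LPS, or 0.345% to 0.529% of all counts of those libraries. Among the 12 largest rises by the naming rule were 3 chemokines (Ccl2, Ccl5 and Cxcl10), 2 cytokines (Tnf and Il1b), 4 interferon-stimulated genes (Rsad2, Cmpk2, Parp14 and Slfn2), the acute-phase protein Saa3, Acod1 and Nos2. Saa3 went from 3.81, 3.67 and 3.51 CPM to 430.5, 607.8 and 307.0 CPM, 122-fold (log2 fold change 6.94 ± 0.27, edgeR adjusted p = 2.02e-08). Parp14, an ADP-ribosyltransferase, went from 3.58, 2.34 and 2.45 CPM to 512, 198 and 420 CPM (7.07 ± 0.43, adjusted p = 8.03e-07). Both groups of libraries lay far apart for these genes, and within the LPS group replicate 2 was highest for Saa3 and lowest for Parp14.

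Of the 12 largest rises 8 had a promoter in the table. The stretches just before the start sites of 3 of them are shown because they carry letters of the factors named in the background; the other 5 (Acod1, Tnf, Il1b, Cmpk2 and Slfn2) held no match in the same 250 bases. Each is the 250 bases upstream of the start from RefSeq (GRCm38.p6), on the gene's strand, 5′ to 3′, with matches in capitals: GGGA and TTCC with 2 free bases between for NF-kB, GAAA, 2 free bases and GAAA for the core of the interferon-stimulated response element (ISRE) and TGANTCA for AP-1, searched on both strands. A match is a description and not a site shown to be bound. Cxcl10 (chr5:92348890-92349139, minus strand) held 1 match of each motif, Rsad2 (chr12:26456453-26456702, minus strand) an ISRE core read on the other strand and an AP-1 match, and Saa3 (chr7:46715677-46715926, minus strand) an ISRE core. None of these matches overlapped another.
Cxcl10: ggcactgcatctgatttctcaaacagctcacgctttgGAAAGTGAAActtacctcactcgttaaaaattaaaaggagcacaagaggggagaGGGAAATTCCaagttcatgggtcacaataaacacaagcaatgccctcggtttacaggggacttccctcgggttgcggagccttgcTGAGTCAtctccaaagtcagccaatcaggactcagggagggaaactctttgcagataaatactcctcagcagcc
Rsad2: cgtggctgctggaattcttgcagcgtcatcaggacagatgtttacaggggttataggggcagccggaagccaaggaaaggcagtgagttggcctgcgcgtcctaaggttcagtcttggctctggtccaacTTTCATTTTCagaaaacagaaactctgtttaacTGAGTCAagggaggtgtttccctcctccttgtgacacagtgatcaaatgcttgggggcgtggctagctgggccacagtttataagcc
Saa3: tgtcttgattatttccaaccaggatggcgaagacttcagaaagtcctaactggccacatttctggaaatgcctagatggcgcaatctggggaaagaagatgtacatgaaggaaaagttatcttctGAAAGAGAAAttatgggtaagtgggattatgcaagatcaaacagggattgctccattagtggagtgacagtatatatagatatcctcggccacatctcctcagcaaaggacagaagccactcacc
In windows of 300 bases around the start (250 before to 50 after), the 200 protein-coding genes with the largest rises had 198 windows from 154 genes in the table, and 7.58% held the NF-kB letters, 12.1% the ISRE core and 18.2% the AP-1 letters. The 200 largest falls had 160 windows from 134 genes, with 0.625%, 1.25% and 7.50%. All protein-coding genes tested had 15747 windows, with 1.45%, 3.11% and 5.79%. Of the 61 windows of the interferon-stimulated gene list 54.1% held the ISRE core. No test was made of these shares. A gene with several starts has several windows, and neighbouring windows of 1 gene can share bases.

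**Figure D2:**
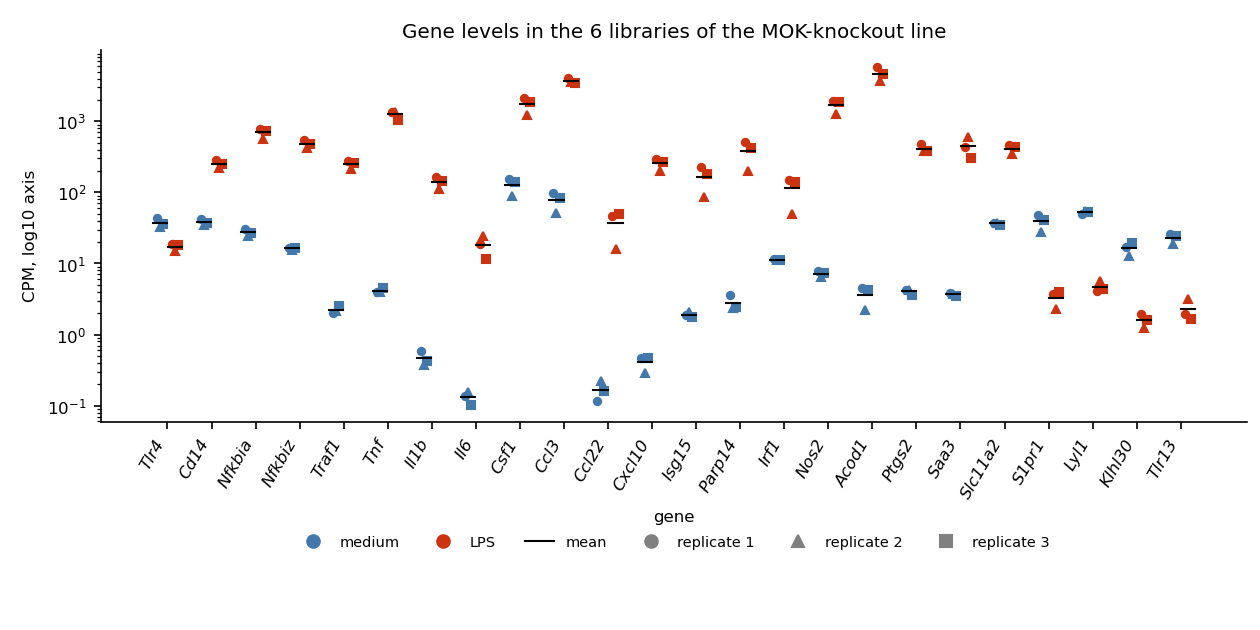
Level of 24 named genes in the 6 KO libraries, in CPM on a log10 axis, with medium in blue, LPS in red, a marker shape for each replicate number and a bar at the mean of the 3 libraries. Medium and LPS libraries did not overlap for any of the 24 genes; Tlr4, S1pr1, Lyl1, Klhl30 and Tlr13 were lower under LPS and the others higher.

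Genes on the receptor side moved in both directions. Of 29 tested genes of the TLR4 complex and its adaptors, 18 rose and 2 fell (median 0.54, against -0.03 over all genes and 0.12 over protein-coding genes). Cd14, the LPS carrier, stood at 42.4, 35.2 and 37.2 CPM in medium and at 282, 219 and 251 CPM under LPS (6.56-fold, adjusted p = 6.6e-08). Irak2, a kinase of the MyD88 complex, rose 7.55-fold, and Ikbke, which encodes IKKε of the TRIF branch, rose 38.0-fold from 22.05, 15.2 and 21.01 CPM to 802, 627 and 786 CPM. The receptor gene Tlr4 itself fell 2.16-fold, from 43.2, 32.4 and 36.5 CPM to 18.5, 15.1 and 18.3 CPM (-1.11 ± 0.12, adjusted p = 3.69e-05). The other decrease was Irak4, the first kinase of the MyD88 complex (-0.66 ± 0.11), named, like the other exceptions to a list's main direction, after its value was seen. Other pattern receptors rose in 13 and fell in 6 of 25 cases. Tlr2, the receptor for bacterial lipopeptides, went from 81.8, 57.7 and 74.3 CPM to 671, 475 and 573 CPM, and Clec4e (Mincle), which binds mycobacterial glycolipid, rose 17.8-fold. Tlr13, a sensor of bacterial ribosomal RNA, fell 10.0-fold from 26.03, 18.6 and 24.1 CPM to 1.98, 3.14 and 1.67 CPM, and Tlr5, the flagellin receptor, fell from 26.7, 15.3 and 21.9 CPM to 7.37, 6.18 and 7.42 CPM.

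NF-kB genes rose almost as a block. Of 24 tested subunits, IkB proteins and ubiquitin regulators, 22 rose and 0 fell (median 2.66). Nfkbia, which encodes the inhibitor IkBα and is itself an NF-kB target, went from 31.03, 24.1 and 26.97 CPM to 790, 566 and 741 CPM (25.5-fold). Nfkbiz, a nuclear IkB protein that helps to induce secondary genes such as Il6, went from 16.8, 15.7 and 16.6 CPM to 555, 420 and 479 CPM (29.7-fold, adjusted p = 3.8e-10). Tnfaip3 (A20), a ubiquitin editor that ends the signal, rose 19.6-fold and its partner Tnip3 18.3-fold. Tnfaip2 rose 13.8-fold, to 1952, 824 and 1703 CPM. Traf1, an adaptor of TNF receptors, rose 113-fold from 2.02, 2.14 and 2.49 CPM to 280, 215 and 261 CPM. In each of these genes the lowest LPS library exceeded the highest medium library several times over.

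The AP-1, EGR, ATF and C/EBP factors, the nuclear end of MAP kinase and stress signals, rose in 23 and fell in 2 of 30 cases (median 1.12). Atf3, a stress-induced repressor, went from 33.8, 18.8 and 32.1 CPM to 371, 218 and 306 CPM, and Maff, a small partner of AP-1 and NRF2 factors, rose 10.5-fold. Cebpd, which amplifies NF-kB targets, rose 12.4-fold from 2.72, 3.89 and 2.76 CPM to 31.7, 47.6 and 36.4 CPM. The decreases were Fos and Egr1, immediate early genes that are known to peak within the first hour, which stood at 1.46 to 2.17 CPM and 1.63 to 2.76 CPM in medium and at 0.674 to 0.919 CPM and 0.423 to 0.522 CPM at 5 h. With the pseudogene share as a covariate neither was called, at -0.86 for Fos (adjusted p = 0.236) and -0.20 for Egr1 (0.899). Dual-specificity phosphatases and sprouty proteins, which restrain this pathway, were listed together with the MAP kinases, and 21 of these 32 genes were higher and 7 lower. Dusp8, a phosphatase of JNK and p38, rose 19.5-fold from 1.15, 1.02 and 0.953 CPM to 25.7, 15.3 and 19.9 CPM, and Dusp5, a phosphatase of ERK, rose 6.44-fold. Mapkapk2 (MK2), the kinase through which p38 stabilises cytokine messages, went from 285, 222 and 263 CPM to 1389, 1009 and 1340 CPM. Dusp6, another ERK phosphatase, was among the 7 that fell (-1.33 ± 0.15).

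Of 28 tested cytokines 24 rose and 3 fell (median 3.37). Il6 went from 0.136, 0.155 and 0.101 CPM to 18.6, 24.5 and 11.7 CPM (138-fold, adjusted p = 1.59e-06), with replicate 2 highest. Il1rn, the antagonist of the IL-1 receptor, rose 75.9-fold from 13.1, 8.28 and 9.49 CPM to 889, 871 and 586 CPM. Csf1, the growth factor that keeps microglia alive, was 1 of the 10 protein-coding genes with the largest gain in CPM: it went from 156, 89.6 and 140 CPM to 2096, 1232 and 1888 CPM (13.5-fold). Ifnb1, the interferon of the TRIF branch, had a count in only 1 of the 3 medium libraries (0.0389 CPM) and stood at 1.09, 0.404 and 0.989 CPM under LPS (adjusted p = 0.000303). Il10, an anti-inflammatory cytokine, was not called: it was at 0.0778, 0.0884 and 0.101 CPM in medium and at 0.0652, 0.0735 and 0.141 CPM under LPS. At 3 to 6 counts per library a small difference could not be detected. In WT Il10 was called higher, from a mean of 0.100 to 0.597 CPM (2.65 ± 0.61, edgeR adjusted p = 0.0070). The difference of the 2 effects was not called (adjusted p = 0.292). The 3 decreases were Il34, the other ligand of the CSF1 receptor (0.802 to 0.249 CPM on average), Tnfsf13b (BAFF; 11.6 to 6.52 CPM) and Il16 (20.5 to 15.99 CPM, not called without KO LPS replicate 3, adjusted p = 0.0502).

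Chemokines rose in 17 of 25 cases and fell in none (median 3.27). Ccl3, a chemokine that attracts leukocytes, went from 98.2, 51.9 and 82.4 CPM to 4048, 3551 and 3499 CPM, 47.7-fold. Ccl22, a ligand of CCR4, went from 0.117, 0.221 and 0.162 CPM to 46.3, 16.2 and 50.005 CPM. Ccl9 went from 3.32, 2.25 and 3.12 CPM to 322, 87.7 and 204 CPM (70.3-fold). Cx3cl1, the membrane-bound chemokine that microglia usually receive from neurons, rose 70.3-fold from 5.02, 4.44 and 5.56 CPM to 392, 247 and 418 CPM. Its receptor Cx3cr1 was low and fell, from 3.46, 1.88 and 2.96 CPM to 0.695, 1.03 and 0.777 CPM (3.30-fold). Of 27 colony-stimulating factors and receptors 11 rose and 5 fell, against 33.2% and 17.03% of protein-coding genes. Il15ra rose 3.40-fold, and Il6ra fell from 58.3, 61.04 and 60.04 CPM to 17.5, 24.6 and 17.7 CPM.

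Interferon-stimulated genes rose in 63 of 69 cases (median 2.57), and 1, Ifitm3, fell, from 1.92, 2.10 and 2.94 CPM to 0.761, 0.202 and 0.565 CPM. With the pseudogene share as a covariate Ifitm3 changed sign (0.18, adjusted p = 0.931), and 55 of the list were higher and 0 lower. Isg15, a ubiquitin-like modifier, went from 1.91, 2.05 and 1.78 CPM to 226, 86.9 and 181 CPM (86.0-fold, adjusted p = 1.62e-06). Ifit1, which binds viral RNA ends, went from 0.156, 0.0884 and 0.142 CPM to 46.7, 16.7 and 40.1 CPM, and Cmpk2, a mitochondrial nucleotide kinase, from 0.817, 0.817 and 0.730 CPM to 210, 56.6 and 162 CPM. KO LPS replicate 2 was the lowest of the LPS libraries for each of these. The mean log2 CPM over the list was 1.08, 0.88 and 1.04 in medium and 4.35, 3.34 and 4.10 under LPS. Without that library 64 of the 69 rose and the median was 2.88. The regulators of this arm had 26 of 34 higher and 3 lower. Irf1, an early interferon regulatory factor, went from 11.5, 11.3 and 11.2 CPM to 151, 49.8 and 141 CPM (10.1-fold), Irf9 rose 7.25-fold and Irf5 2.57-fold. Socs3, which restrains STAT3 signals, went from 13.5, 9.57 and 7.79 CPM to 50.7, 52.96 and 42.6 CPM. Socs2, Socs6 and the interferon-γ receptor chain Ifngr1 were the 3 lower genes, with log2 fold changes from -0.65 to -0.47.

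The same library was lowest in the 6 protein-coding genes of at least 4 in mean log2 CPM whose LPS libraries spread most. These were Rsad2 (1130, 287 and 938 CPM under LPS), Ccl9, Ifit2 (251, 72.1 and 208 CPM), Gm13889 (193, 62.005 and 168 CPM), Irf1 and St8sia4, a polysialyltransferase (39.99, 13.2 and 36.98 CPM). St8sia4 was at 11.8, 13.6 and 13.4 CPM in medium, so its replicate 2 under LPS lay within the range of medium, and the gene was called (1.21 ± 0.32, adjusted p = 0.00916). That call was lost with the pseudogene share as a covariate (adjusted p = 0.169) and with the replicate block in only the 6 KO libraries (0.172). The cause of the spread was not tested.

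**Figure D3:**
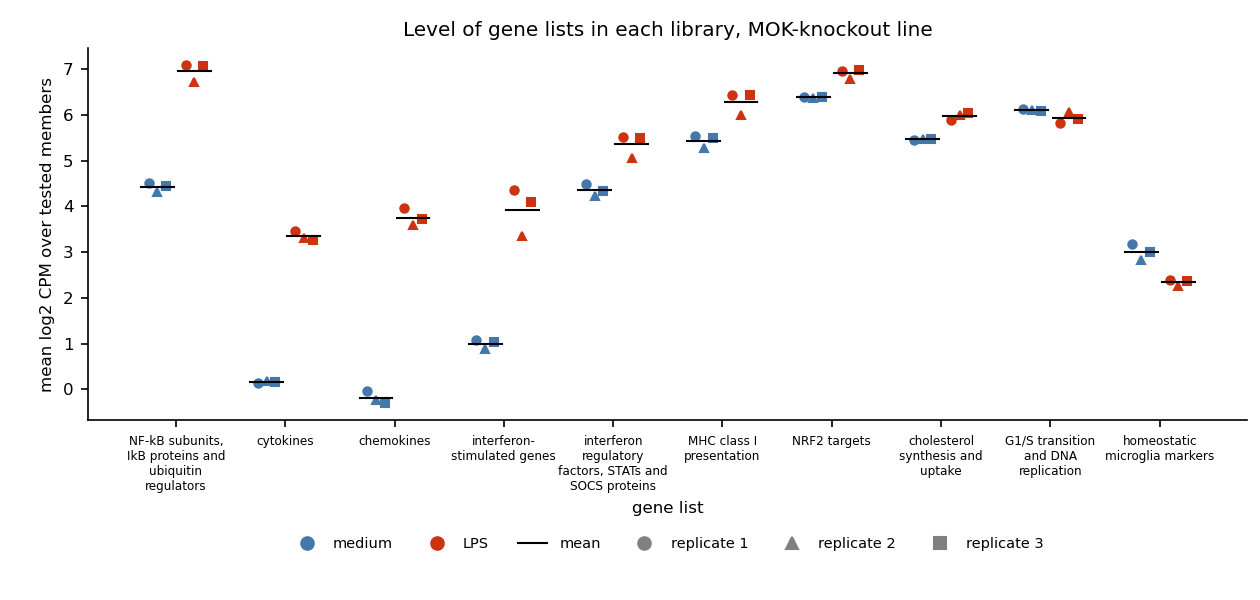
Mean log2 CPM of the tested members of 10 gene lists in each of the 6 KO libraries, medium in blue and LPS in red, with a marker shape for each replicate number and a bar at the mean. For interferon-stimulated genes the LPS libraries were at 4.35, 3.34 and 4.10 with replicate 2 lowest, whereas the cytokine list was at 3.45, 3.31 and 3.27.

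Proteins that destroy cytokine messages rose as well, with 14 of 25 higher and 2 lower. Zc3h12a (Regnase-1), an endonuclease that cleaves Il6 and other messages, went from 5.02, 5.26 and 6.35 CPM to 108, 119 and 98.9 CPM (19.6-fold, adjusted p = 1.69e-09), and its relative Zc3h12c rose 14.4-fold. Zfp36 (tristetraprolin), which recruits deadenylases to AU-rich elements, rose 8.44-fold. Tob1 and Zfp36l2 were lower, with log2 fold changes of -1.17 and -0.34, and Zfp36l2 was not called without KO LPS replicate 1 (adjusted p = 0.0714). Genes of transcription elongation were part of the change: Ell2 rose 4.67-fold and the demethylase Kdm6b 2.56-fold, among 13 of 21 BET and elongation genes that rose and 3 that fell, all 3 (Hexim1, Hexim2 and Ell) regulators or parts of elongation complexes. The call of Ell was lost without KO LPS replicate 1 or 3 (adjusted p = 0.101 and 0.165) or KO medium replicate 1 or 2 (0.058 and 0.0737).

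Antimicrobial and redox enzymes rose in 17 of 21 cases and fell in 1, Pts, whose call was lost when any single KO library was left out (adjusted p = 0.051 to 0.108). Nos2, the inducible nitric oxide synthase, stood at 7.76, 6.43 and 7.44 CPM in medium and at 1962, 1272 and 1882 CPM under LPS. Cybb, the catalytic subunit of the phagocyte NADPH oxidase, went from 15.2, 3.25 and 5.72 CPM to 293, 125 and 181 CPM (24.7-fold, adjusted p = 0.00015). Sod2, the mitochondrial superoxide dismutase, rose 2.62-fold from 111, 116 and 112 CPM to 297, 320 and 270 CPM. Of 20 prostaglandin and leukotriene genes 7 were higher and 4 lower, near the shares among protein-coding genes (33.2% and 17.03%). Ptgs2 (COX-2) went from 4.28, 4.29 and 3.65 CPM to 473, 380 and 377 CPM, 100.7-fold, and the prostaglandin E2 receptor Ptger4 rose 3.01-fold. The constitutive enzyme Ptgs1 (COX-1) fell from 60.5, 48.8 and 51.6 CPM to 24.8, 19.3 and 21.98 CPM (-1.28 ± 0.15).

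Surface molecules for contact with other cells were mostly raised, with 25 of 39 costimulatory and adhesion genes higher and 2 lower. Tnfrsf1a, a receptor for TNF and 1 of the 2, was not called without KO LPS replicate 1, 2 or 3 (adjusted p = 0.0715, 0.0623 and 0.0653). Cd40, which receives T cell help, went from 2.55, 2.21 and 2.21 CPM to 166, 119 and 146 CPM (61.7-fold, adjusted p = 4.87e-10), and Icam1, a ligand of leukocyte integrins, from 18.1, 19.4 and 17.6 CPM to 361, 260 and 341 CPM (17.4-fold). Tnfrsf1b, the second TNF receptor, rose 8.08-fold, and the death receptor Fas rose from 0.972, 0.685 and 0.831 CPM to 32.01, 23.3 and 27.5 CPM. MHC class I presentation rose in 18 of 22 genes and fell in none (median 0.93). Tapbp (tapasin), which loads peptides, rose 3.06-fold from 75.1, 60.4 and 64.3 CPM to 233, 147 and 232 CPM, and 27% of its 31-base words occur in another gene. MHC class II had 4 of 14 higher and 2 lower, near the shares among protein-coding genes (33.2% and 17.03%). The class II transactivator Ciita went from 0.933, 1.04 and 0.446 CPM to 8.84, 5.24 and 8.31 CPM, and Cd74, the invariant chain, from 322, 237 and 311 CPM to 556, 394 and 565 CPM. H2-Aa, a class II chain, was at 6.32, 2.14 and 1.91 CPM in medium and at 17.9, 10.99 and 17.4 CPM under LPS, with a call that was lost without KO medium replicate 2 or 3 (adjusted p = 0.0745 and 0.07).

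**Figure D4:**
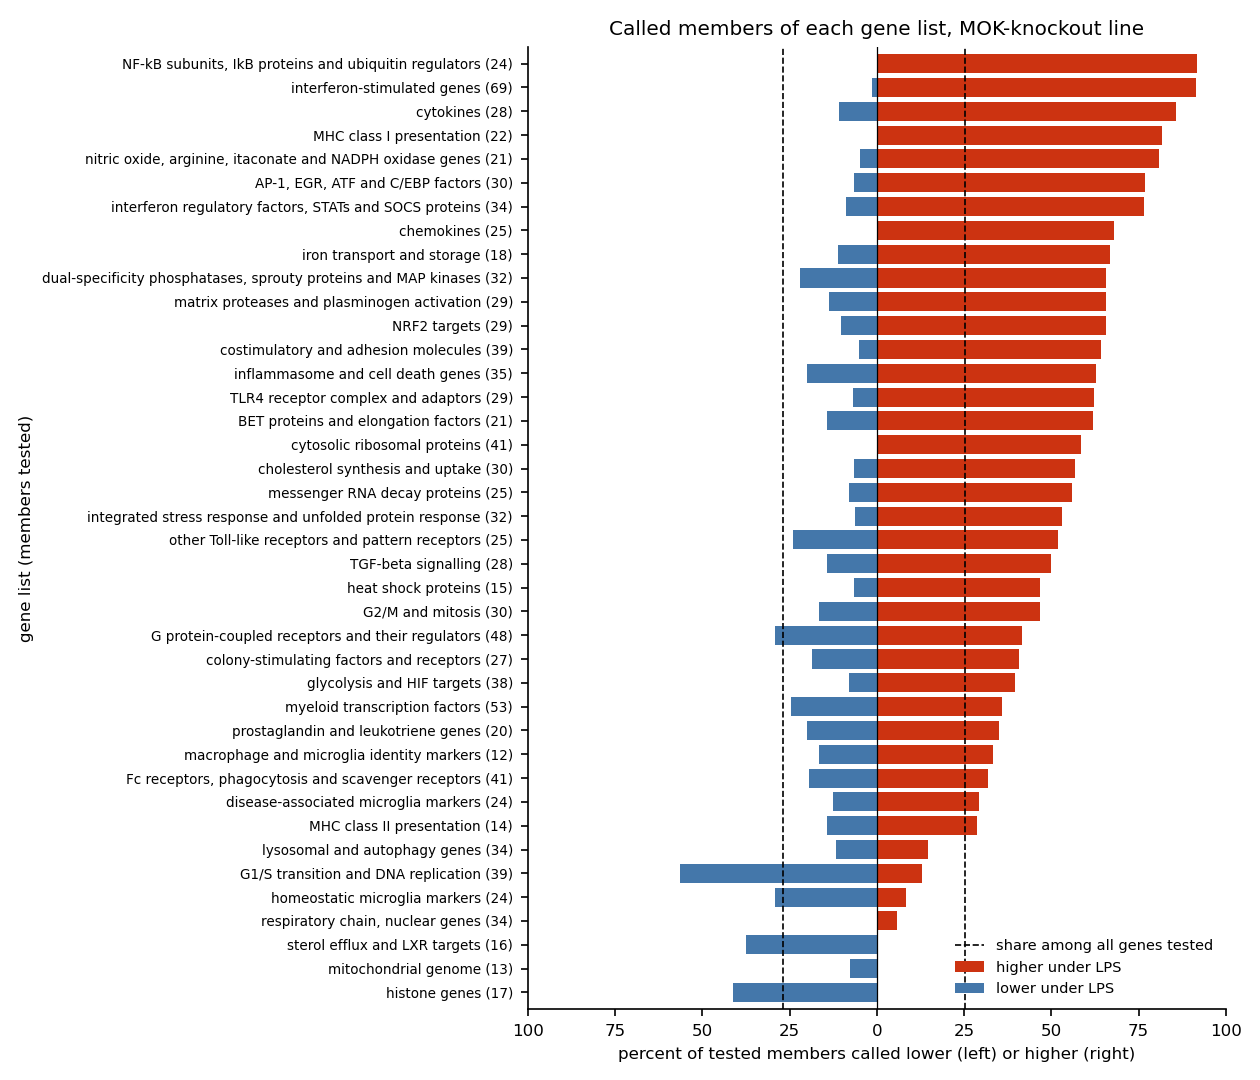
Percent of the tested members of each of 40 gene lists called higher (red, to the right) or lower (blue, to the left) under LPS in the KO line, with the number tested in brackets. The dashed lines are the shares among all genes tested, 25.3% higher and 26.8% lower; the NF-kB, interferon-stimulated and cytokine lists lie farthest to the right.

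Survival and inflammasome genes had 22 of 35 higher and 7 lower. Nlrp3, the sensor of the canonical inflammasome, went from 33.8, 23.7 and 32.99 CPM to 418, 343 and 363 CPM (12.4-fold), and Casp4 (caspase-11), which binds intracellular LPS, rose 10.3-fold. Bcl2l1 (BCL-XL), an inhibitor of apoptosis, went from 11.96, 10.8 and 12.04 CPM to 193, 135 and 206 CPM, and Mcl1, another, rose 3.18-fold. Bmf, which promotes apoptosis, was among the 7 lower genes and fell from 15.96, 12.7 and 15.6 CPM to 2.65, 1.58 and 3.53 CPM.

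The falls given first are the largest by the naming rule, which asks for a level (mean log2 CPM) of 2 or more, a limit that leaves out genes of lower level. S1pr1, a sphingosine-1-phosphate receptor, went from 47.7, 28.01 and 41.2 CPM to 3.74, 2.26 and 3.91 CPM (11.8-fold lower, adjusted p = 1.37e-05). Lyl1, a helix-loop-helix factor of blood stem cells, went from 49.96, 55.01 and 52.4 CPM to 4.04, 5.61 and 4.43 CPM (11.2-fold lower). Klhl30, a kelch-like protein, fell 10.1-fold from 17.03, 12.7 and 19.2 CPM to 1.98, 1.25 and 1.63 CPM. Sgsh, the lysosomal sulfamidase, fell 7.71-fold and Slc26a11, an anion transporter, fell 7.71-fold as well, from 15.2, 11.3 and 16.1 CPM and from 23.4, 19.7 and 26.3 CPM to 1.78, 1.73 and 2.03 CPM and to 2.67, 3.29 and 3.04 CPM. Padi1, a protein-arginine deiminase that shares 31.8% of its 31-base words with another gene, fell 8.59-fold. Medium and LPS libraries did not overlap in any of these. The 12 largest falls also held Acta1, Rasl2-9, G6pd2 and Aldoart1, which fell 7.84-fold to 17.04-fold. With the library's processed pseudogene share as a covariate those 4 changed sign, whereas S1pr1, Lyl1, Klhl30, Sgsh, Slc26a11, Padi1 and Tlr13 stayed called lower.

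Of 24 homeostatic microglia markers, genes of the resting state in brain, 7 fell and 2 rose (median -0.29). The share that fell was near that of all genes tested (26.8%) but above that of protein-coding genes (17.03%). The share that rose was below both the 25.3% of all genes tested and the 33.2% of protein-coding genes. In the fit with the covariate 4 fell, 0 rose and the median was -0.06. Single members fell strongly from a few CPM. Tmem119 went from 6.71, 6.61 and 4.603 CPM to 0.565, 0.588 and 0.565 CPM (-3.38 ± 0.22, adjusted p = 8.15e-07). P2ry13, a nucleotide receptor, went from 4.55, 3.95 and 3.89 CPM to 0.239, 0.441 and 0.165 CPM (-3.84 ± 0.32), and Mertk, which takes up dead cells, from 9.86, 4.97 and 7.97 CPM to 1.28, 0.864 and 1.46 CPM. P2ry12 and Gpr34, at or under 1.13 CPM in every KO library, were lower too. Both calls were lost with the pseudogene share as a covariate (edgeR adjusted p = 0.516 and 0.0808). Trem2, a receptor for lipids and apoptotic cells, stood at 80.2, 67.1 and 79.8 CPM in medium and at 36.4, 33.1 and 36.7 CPM under LPS (2.14-fold lower). Ptprc (CD45) rose 1.40-fold. Of the 24 markers of disease-associated microglia 7 rose and 3 fell, no larger shares than among protein-coding genes, with Spp1 (osteopontin) rising from 569, 296 and 506 CPM to 1215, 579 and 980 CPM, a call lost with the pseudogene share as a covariate. Among 53 myeloid transcription factors 19 rose and 13 fell, the rises near the protein-coding share of 33.2%. Spi1 (PU.1), the master factor of the lineage, rose 3.35-fold from 71.7, 68.4 and 62.6 CPM to 248, 185 and 246 CPM, the opposite direction to Lyl1.

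Of 41 Fc, phagocytosis and scavenger receptor genes 13 rose and 8 fell, near the shares among all protein-coding genes (33.2% and 17.03%). Syk, the kinase behind many of these receptors, went from 91.2, 94.5 and 86.5 CPM to 253, 238 and 250 CPM (2.72-fold, adjusted p = 6.6e-08), and complement C3 rose 3.59-fold. Lilrb4a, an inhibitory receptor, rose 12.9-fold, and 56% of its 31-base words occur in another gene, so its count may hold reads of a relative. G protein-coupled receptors and their regulators had 20 of 48 higher and 14 lower (median -0.11). The shares were 33.2% and 17.03% among protein-coding genes, and 25.3% and 26.8% among all genes tested. Gpr84, a receptor for medium-chain fatty acids, went from 5.75, 6.65 and 5.29 CPM to 47.01, 82.3 and 46.8 CPM, and Rgs1, which shortens receptor signals, rose 7.51-fold.

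Metabolic and stress programmes changed less in size but in many genes. Cholesterol synthesis and uptake had 17 of 30 genes higher and 2 lower (Tm7sf2 and Soat1; median 0.52), and 16 genes of sterol efflux and LXR targets had 0 higher and 6 lower. Insig2, which holds back the processing of sterol-responsive factors, rose 3.98-fold. Scd1, which desaturates fatty acids, fell 6.91-fold from 24.8, 33.6 and 30.98 CPM to 3.61, 4.25 and 5.09 CPM. The exporters Abca1 and Abcg1 fell by 0.99 and 0.97 on the log2 scale, and the call of Abca1 was lost with the pseudogene share as a covariate. Targets of NRF2, the factor of oxidative stress, rose in 19 and fell in 3 of 29 cases. Srxn1 (sulfiredoxin) rose 5.09-fold from 34.003, 35.2 and 34.7 CPM to 188, 153 and 187 CPM, Slc7a11 (the cystine transporter) 3.89-fold and Txnrd1 (thioredoxin reductase) 3.33-fold. Gclc, Osgin1 and Gsta4 were the 3 lower ones, with log2 fold changes of -0.29, -1.17 and -2.21. The call of Gclc was lost without KO LPS replicate 1 or 2 (adjusted p = 0.0769 each), and that of Gsta4 without KO LPS replicate 1 or 2 (0.0927 and 0.11) or KO medium replicate 2 or 3 (0.0767 and 0.0693).

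Genes of the integrated stress and unfolded protein responses were higher in 17 of 32 cases and lower in 2. Atf4, the factor of amino acid stress, went from 89.97, 154 and 102 CPM to 499, 363 and 492 CPM, its target Trib3 rose 5.61-fold, and the chaperone Hspa5 rose 1.99-fold. Xbp1 and Eif2ak3 (PERK) were lower, with log2 fold changes of -0.41 and -0.73. Iron genes had 12 of 18 higher and 2 lower. Slc11a2 (DMT1), an iron importer, went from 37.2, 37.3 and 35.2 CPM to 460, 344 and 430 CPM (11.3-fold, adjusted p = 5.8e-09), and Fth1, the ferritin heavy chain, from 2352, 2034 and 1998 CPM to 4730, 3697 and 4012 CPM. Sqstm1 (p62), an autophagy receptor and NRF2 partner, went from 270, 224 and 246 CPM to 2508, 1459 and 2222 CPM, in a lysosomal and autophagy list where only 5 of 34 rose and 4 fell. Glycolysis and HIF targets had 15 of 38 higher and 3 lower, against 33.2% and 17.03% of protein-coding genes. The transporter Slc2a6 rose 4.68-fold from 44.5, 45.1 and 44.2 CPM to 223, 201 and 204 CPM, and Ankrd37 fell 3.54-fold. Gapdh was at 876, 414 and 403 CPM in medium and at 1936, 1459 and 1856 CPM under LPS, but 28% of its 31-base words occur in another gene, its call was lost without KO medium replicate 2 or 3 (adjusted p = 0.061 and 0.0577), and its sign changed with the pseudogene share as a covariate.

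Extracellular proteolysis rose in 19 and fell in 4 of 29 cases. Adamts4 (aggrecanase) rose 15.7-fold and the sheddase Adam8 7.75-fold. TGF-beta signalling had 14 of 28 higher and 4 lower, and its inhibitors Skil and Smad7 rose 2.92-fold and 3.01-fold. Ltbp1 was at 23.4, 9.15 and 8.01 CPM in medium and at 75.1, 61.5 and 60.5 CPM under LPS, with a call lost without KO medium replicate 2 or 3 (adjusted p = 0.0807 and 0.0767) and a change of sign with the covariate.

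Genes of the G1/S transition and DNA replication fell in 22 and rose in 5 of 39 cases (median -0.36, against 0.12 for protein-coding genes). E2f1, which drives them, went from 47.4, 50.3 and 48.6 CPM to 21.2, 31.4 and 23.9 CPM (1.91-fold lower). The 5 that rose included Cdkn1a (p21), an inhibitor of cyclin-dependent kinases, which went from 53.9, 45.5 and 51.02 CPM to 406, 184 and 408 CPM (6.63-fold), and Cdk6, a kinase of early G1 (3.87-fold). The others were Ccnd2, E2f3 and E2f7. E2f3 was not called without KO medium replicate 3 (adjusted p = 0.0523), nor E2f7 without KO medium replicate 2 or 3 (0.0648 and 0.063). G2/M and mitosis had 14 of 30 higher and 5 lower, against 33.2% and 17.03% of protein-coding genes. The changes were small, Prc1 rising 1.77-fold and Cdc25b falling 1.63-fold. The excess of rises in this list depended on the processing. It stayed at 14 against 5 with the replicate block and was 10 against 8 with protein-coding genes only. Adding the pseudogene covariate left 1 rise and 1 fall, and library size alone gave 5 rises and 13 falls. Without KO LPS replicate 2 the G1/S list had 30 lower; in the fit with the covariate 4 were lower and 2 higher. Of 17 histone genes 7 fell and 0 rose, with 1 lower under that covariate. Cytosolic ribosomal protein genes rose in 24 of 41 cases by small amounts (median 0.31), and 0 of the 41 were called with the pseudogene share as a covariate. Nuclear respiratory chain genes had 2 of 34 higher and 0 lower, and mitochondrial genes 0 of 13 higher and 1 lower, mt-Nd3. The call of mt-Nd3 was lost with the covariate (edgeR adjusted p = 0.104). Mitochondrial genes took 2.44% of the counts in KO LPS replicate 2, against 0.873% and 1.28% in the other LPS libraries. Without that library the median of the 13 went from -0.38 to -0.90, still with 0 higher and 1 lower.

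The 10 protein-coding genes with the largest gain in CPM, a choice that fixes the direction of their share (Acod1, Ccl3, Actb, Clic4, Fth1, Sqstm1, Nos2, Csf1, Ccl2 and Actg1), took 0.921% to 1.05% of the counts in medium and 2.51% to 3.37% under LPS. Clic4, an intracellular chloride channel protein, went from 566, 410 and 548 CPM to 3113, 1839 and 2969 CPM (5.20-fold). The cytoplasmic actins Actb and Actg1 rose 1.54-fold and 2.61-fold, with 24% and 40% of their 31-base words shared with other genes. Among the 10 largest losses were Laptm5, a lysosomal membrane protein of blood cells (1290, 1116 and 1273 CPM to 722, 575 and 717 CPM), Scd2 and Plxnb2.

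Some genes went from near silence to clear expression. There were 21 genes under 1 CPM in every KO medium library and at 10 CPM or more in every KO LPS library, 18 of them protein-coding. By level under LPS the first were Cxcl10, Ccl5, Cxcl2, Cmpk2, Il1b, Rtp4, Ccl22 and Ifit1. Cxcl2, a neutrophil chemokine, stood at 0.0972, 0.0221 and 0.0203 CPM in medium and at 159, 228 and 94.9 CPM under LPS. Mir155hg, the host transcript of the microRNA miR-155 and chosen here after its value was seen, went from 0.389, 0.619 and 0.487 CPM to 26.4, 30.2 and 25.5 CPM (log2 fold change 5.78 ± 0.31). Its hairpin yields a 5′ arm that is known to target SOCS1 and other regulators of innate signals, and gene counts measure the host transcript and not the mature microRNA. The mature arm is printed from RefSeq (GRCm38.p6, chr16:84714143-84714165, plus strand) with its seed, bases 2 to 8, in capitals.
mmu-miR-155-5p: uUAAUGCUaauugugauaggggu

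Other long non-coding genes that changed, at a mean log2 CPM of at least 2, included loci known here only by an identifier or a systematic name. Gm14636 went from 3.56, 3.60 and 5.56 CPM to 53.6, 91.1 and 53.4 CPM (15.6-fold, adjusted p = 7.34e-06). AC141882.2 went from 23.8, 16.9 and 25.1 CPM to 2.09, 1.42 and 2.05 CPM (11.9-fold lower), and 5830418P13Rik, an antisense gene, fell 6.64-fold. The strand setting of the counting is not given in the sources used here, so reads of an antisense gene and its partner may not be told apart.

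Whether the KO response differed from that of WT was tested as the difference of the LPS effects (interaction, edgeR, n = 3 per group). It was called for 423 of 26420 genes (1.60%), with the KO effect above the WT effect in 183 (0.693%) and below it in 240 (0.908%). Of the 13749 genes called in the KO line, 321 had a called difference: among those that rose in KO the effect was above that of WT in 149 and below it in 91, and among those that fell it was below that of WT in 71 and above it in 10. The count depends on single libraries: it lay between 186 and 570 when any 1 of 11 libraries was left out. It was 3997 without WT medium replicate 2. That library had the highest processed pseudogene share in WT, 13.05%, against 8.89% and 6.58% in the other WT medium libraries. Whether this share lies behind the higher count was not tested. Acod1 and Nos2 had larger KO effects, 10.33 ± 0.34 against 6.78 ± 0.29 for Acod1 (difference 3.55, adjusted p = 0.000567) and 7.88 ± 0.21 against 5.30 ± 0.19 for Nos2 (difference 2.58, adjusted p = 0.000419). Acod1 stood at 5422, 4657 and 4962 CPM in WT under LPS, within the range of the KO LPS libraries, and at 40.03, 45.9 and 51.4 CPM in WT medium, above every KO medium library. Nos2 was lower in every KO library than in the WT libraries of the same treatment, which held 53.3 to 65.1 CPM in medium and 2157 to 2522 CPM under LPS. Adam8 also began lower, with 92.9, 95.8 and 87.2 CPM in WT medium against 2.08, 3.03 and 2.49 CPM in KO medium. Under LPS it reached 22.4, 13.7 and 22.7 CPM in KO, below every WT medium library, and 153, 132 and 137 CPM in WT. Cx3cl1 differed in another way: WT was at 1.66, 1.21 and 1.11 CPM in medium and at only 24.3, 16.7 and 17.4 CPM under LPS, below every KO LPS library.

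Of the 69 interferon-stimulated genes, the KO effect was below the WT effect in 22 and above it in 2 (Rtp4 and Slfn2). In 21 of the 22 both effects were positive, and Ifitm3 was the exception, at -2.20 in KO and 2.48 in WT. The list had medians of 2.57 in KO and 4.34 in WT. Ifit2 rose by 4.12 ± 0.39 in KO and 6.57 ± 0.44 in WT (difference -2.46, adjusted p = 0.041), Usp18, which switches interferon receptors off, by 1.68 and 3.62, and Rnf213 by 1.59 and 3.55. Rnf213 stood at 525, 331 and 387 CPM in KO and at 1464, 1406 and 1254 CPM in WT under LPS. Mx1, an antiviral GTPase chosen after its value was seen, reached 0.652, 0.460 and 0.754 CPM in KO and 12.9, 15.7 and 11.5 CPM in WT. Cholesterol synthesis had 6 of 30 genes with a larger KO effect and none with a smaller one. Hmgcs1, an early enzyme of the pathway, rose by 0.74 ± 0.12 in KO and changed by -0.07 ± 0.12 in WT (difference 0.80, adjusted p = 0.0388). Ccnd1 (cyclin D1) was not called in KO (-0.08 ± 0.09) and fell in WT by 0.94. Tlr13 and Lyl1 fell more in KO than in WT, Tlr13 by 3.33 against 1.65 and Lyl1 by 3.48 against 2.54.

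**Figure D5:**
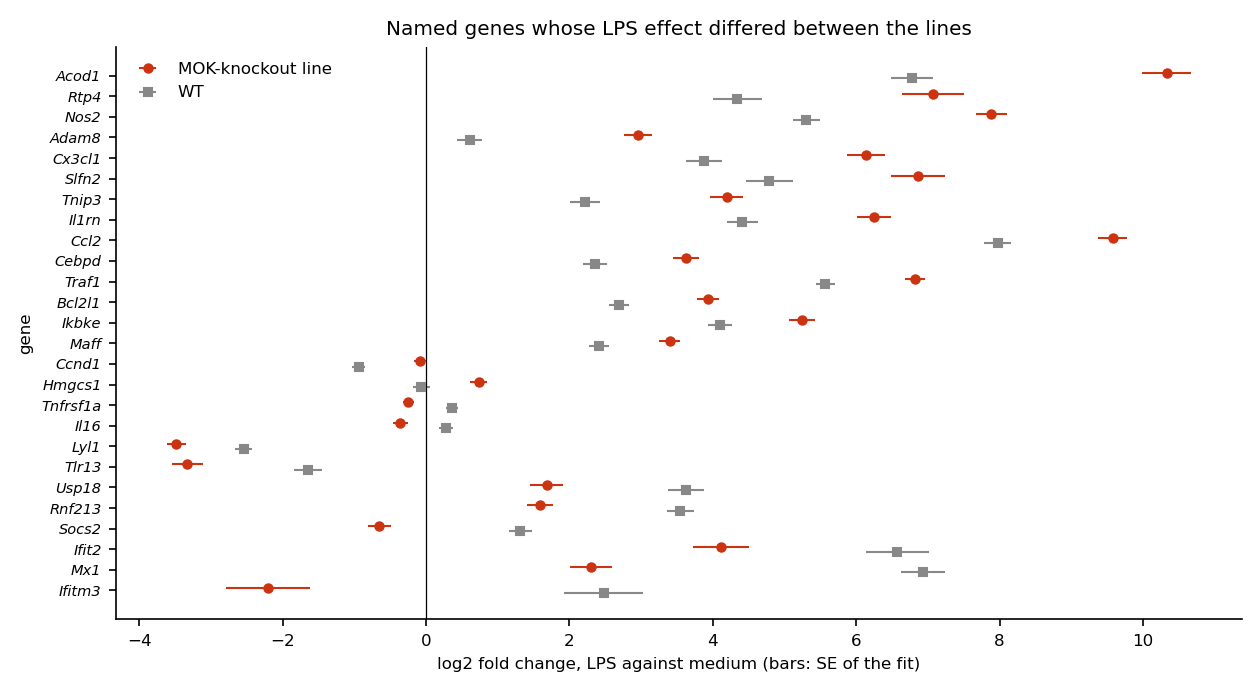
Log2 fold change (LPS against medium) with its standard error in the KO line (red circles) and in WT (grey squares) for the named genes with a called difference, in order of the KO effect minus the WT effect. Acod1 lies at the top with 10.33 against 6.78, and interferon-stimulated genes such as Ifit2 lie toward the bottom.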

How the data were processed

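Values are raw counts of reads per Ensembl identifier in the table the authors deposited for 12 libraries. The authors used FastQC 0.11.9, Trimmomatic 0.39, STAR 2.7.9a, featureCounts and DESeq2 1.32.0 with GRCm39, per the submitters' processing notes. How strand and reads mapping to several places were handled, and which annotation was counted, is unknown here: not given in the sources used. Symbols and gene classes came from GENCODE M21 (GRCm38) for 52135 of 55416 identifiers; the others held 6.47% of the counts and were kept. Because the builds differ, no coordinates are given except those of the RefSeq sequence tables.

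Counts were filtered with filterByExpr by group (count minimum 10), scaled by TMM and tested in edgeR 4.0.16 (R 4.3.3) with a robust quasi-likelihood fit of 4 group means over all 12 libraries, with Benjamini-Hochberg adjustment over 26420 genes and a threshold of 0.05. The fit was checked on simulated data. Log2 fold changes carry the SE of the fit; CPM values are scaled, and log2 CPM uses a prior count of 2. Shared sequence is the percent of a gene's 31-base words found in transcripts of another gene.

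The members, the 46 gene lists (1275 entries, 21 of them histone entries without a match) and the rule for named genes were chosen with earlier results of these data known. The rule took 30 genes fixed by name, the 12 largest rises and falls among called protein-coding genes with a regular symbol, a mean log2 CPM of at least 2 and groups that do not overlap, the 3 largest called changes and the most abundant member of each list, and the largest changes among long non-coding genes, gains and losses in CPM, interactions, genes under 1 CPM in medium and at 10 CPM or more under LPS, and spreads among LPS libraries. Not every gene it names is described. Other genes, mainly members that went against their list, were named after their values were seen. A few genes that the rule or the lists name are not reported here.

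Alternatives were no filter or a count minimum of 50, RLE factors, scaling to library size, DESeq2 1.42.0, a fit without robust estimation, a replicate block, a fit of only the 6 KO libraries, the 50 most abundant genes left out, protein-coding genes only, the log2 processed pseudogene share as a covariate, and each library left out.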

Additional observations from a re-analysis of the deposited data

Results flagged for a closer look

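The LPS effect differed between the KO line and WT, by the test of the difference itself, in 26 of the genes named. Values are the KO effect minus the WT effect on the log2 scale. It was above 0 for Acod1 (3.55), Rtp4 (2.72), Nos2 (2.58), Adam8 (2.34), Cx3cl1 (2.25), Slfn2 (2.07), Tnip3 (1.97), Il1rn (1.84), Ccl2 (1.60), Cebpd (1.27), Traf1 (1.25), Bcl2l1 (1.25), Ikbke (1.15), Maff (0.99), Ccnd1 (0.86) and Hmgcs1 (0.80). It was below 0 for Tnfrsf1a (-0.60), Il16 (-0.63), Lyl1 (-0.94), Tlr13 (-1.68), Usp18 (-1.94), Rnf213 (-1.96), Socs2 (-1.96), Ifit2 (-2.46), Mx1 (-4.63) and Ifitm3 (-4.67). Ifitm3, Socs2, Il16 and Tnfrsf1a fell in the KO line and had positive estimates in WT.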

How the results depend on the processing

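Of the 3 main counts, 6679 higher, 7070 lower and 423 differing between the lines, none moved by over 1.5 times with RLE scaling, no filter, a count minimum of 50, robust estimation off or the 50 most abundant genes left out. The genes higher came to 4182 with library size alone, 4083 with protein-coding genes only and 1342 with the log2 pseudogene share added as a covariate; the genes lower came to 4202 and 659 with the latter pair. Rises were 38.8% of the calls with no filter, 28.6% with library size alone and 67.1% with the covariate, against 48.6%. Leaving out 1 KO library gave 4748 to 6133 higher and 5823 to 7135 lower. Leaving out 1 WT library gave 5956 to 6669 higher and 6832 to 8191 lower in the KO line. A fit of only the 6 KO libraries gave 6130 higher and 7131 lower. The count differing between the lines was 857 with DESeq2, 670 with protein-coding genes only, 199 with the covariate and 186 to 3997 with 1 library left out, the highest without WT medium replicate 2.

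Deviations of same-numbered KO libraries had correlations of 0.192, 0.335 and 0.045, and those of differently numbered ones -0.272 to 0.045. Whether equal numbers mark paired cultures was not settled, and the main fit did not pair them. With the replicate block 7132 genes were higher, 7485 lower and 661 differed between the lines, and with the block and only the 6 KO libraries 7340 were higher and 7995 lower.

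With the covariate the log2 fold change changed sign in 11 named genes: Acta1 (0.10), Aldoart1 (0.27), E2f7 (-0.076), G6pd2 (0.27), Gapdh (-0.17), Gsta4 (1.16), H2-Aa (-0.30), Ifitm3 (0.18), Ltbp1 (-0.89), Mag (0.24) and Rasl2-9 (0.091), and 39 others lost their call, among them Cx3cr1, Hmgcs1, Laptm5, Cd74, Actb and Mx1. Il10 was not called in any fit that tested it, but its estimate moved most with the covariate, to 2.32 (edgeR adjusted p = 0.351). It was at -0.21 with library size alone, -0.081 with no filter and -0.11 with protein-coding genes only. With 1 KO library left out it lay between -0.34 (without KO LPS replicate 3) and 0.23, below 0 also without KO medium replicate 1 (-0.097) or 2 (-0.018). The cause of these changes was not tested.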
